A study of Mus musculus with 24 samples.

Results

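The genes described here encode the machinery that stores transmitter in synaptic vesicles and fuses those vesicles with the membrane. They were taken by symbol as every synaptotagmin, syntaxin, VAMP 1 to 8, synapsin, SV2, Rab3, complexin and SNAP-25 family gene in the count tables, which gave 57 of 49568 gene symbols. The 57 were 17 synaptotagmins, 15 syntaxins, 7 VAMPs, 3 synapsins, 3 SV2 genes, 4 Rab3 genes, 4 complexins and 4 SNAP-25 family genes. Hippocampal RNA was sequenced from 24 male mice on a C57-Bl/6J background, aged 21 to 23 months, with 1 library per mouse. Wild-type (WT) mice and MSK1 KD mice, which carry a kinase-dead point mutation knocked into both copies of the MSK1 gene, either stayed in standard housing (SH) or moved to enriched housing (EE) at 18 months. This made the groups WTSH, WTEE, KDSH and KDEE of 6 mice each. WT and MSK1 KD mice were kept as separate lines, so that the mutation and any other difference between the lines cannot be told apart. The study set aside samples 4 and 7 (WTSH) and 6 (KDSH), leaving 4 WTSH, 6 WTEE, 5 KDSH and 6 KDEE mice, and those 3 libraries are described apart at the end.

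At a presynaptic terminal, synapsins tether vesicles in a reserve pool and Rab3 proteins help bring them to the active zone. The vesicle SNARE VAMP2 zips together with a syntaxin and SNAP-25 of the plasma membrane, complexins hold the assembled complex, and synaptotagmin-1 triggers fusion when calcium enters. Relatives of these proteins, such as the endosomal and Golgi syntaxins, VAMP7, VAMP8 and SNAP23, serve other membrane traffic in many cell types. MSK1, encoded by Rps6ka5, is a nuclear kinase downstream of BDNF and MAPK signalling that phosphorylates CREB and histone H3, and the study asked how gene expression in the aged hippocampus depends on it and on enrichment.

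The 21 kept libraries held 27410239 to 71907130 counts on genes, and the 57 genes took 1.27 to 1.47% of them. All levels below are CPM, the counts of a gene relative to its library after TMM scaling. Rps6ka5 was at 13.8 to 25.2 CPM in 10 WT mice and at 23.0 to 24.8 CPM in 11 MSK1 KD mice, but a point mutation leaves the transcript in place, so its level checks no label. The 5 neuronal markers summed to 3940 to 7140 CPM. The 7 choroid plexus markers (Ttr, Kl, Folr1, Clic6, Tmem72, Kcnj13 and Aqp1) summed to 2684 to 9734 CPM in 5 libraries (WTSH mouse 19, WTEE mice 10 and 13, KDEE mice 12 and 14) and to 25.4 to 116.3 CPM in the other 16. In whole-tissue RNA, fewer cells of a type and less RNA per cell cannot be told apart.

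Levels were compared between genes per length, as mean CPM per kilobase of exon (all exons of a gene merged) over the 21 mice. Of the 57 genes, 11 reached 100 CPM per kb, 21 lay between 10 and 100, 19 between 1 and 10, and 6 below 1. The leading gene held from 28.4% (Syt1 among synaptotagmins) to 81.4% (Vamp2 among VAMPs) of its family's summed level. Syt8 and Cplx4 did not pass the filter on low counts, with at most 3 counts in 18 and 16 of the 21 libraries, so 55 genes were tested. Counting was not stranded, and Snap47, Stx18, Syn3, Syt12 and Syt4 share at least 10% of their exon length with a gene on the opposite strand, so their levels may hold reads of that gene.

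Per kilobase of merged exon, complexin genes, Snap25 and Vamp2 were the most abundant. The complexin genes Cplx2 (288 ± 24.4 CPM per kb, SD, n = 21) and Cplx1 (268 ± 18.6 CPM per kb) stood beside Snap25 (279.9 ± 18.2 CPM per kb) and Vamp2 (253 ± 30.3 CPM per kb), and the SD ranges of these 4 overlapped. Rab3a, the main Rab3 of brain, followed at 223 ± 22.5 CPM per kb, which was 78.5% of its family. The calcium sensor Syt1 (173 ± 12.9 CPM per kb), Syn1 for synapsin I (168 ± 30.7 CPM per kb) and Syt11, a synaptotagmin that does not bind calcium (165 ± 3.7 CPM per kb), came next and lay within their spread of each other on this scale. Per kilobase of the longest transcript the order was another, with Vamp2 at 438, Snap25 at 389, Rab3a at 319, Syt1 at 299.6, Cplx2 at 288 and Cplx1 at 268 CPM per kb, and Syt1 stood above Syt11 (172 CPM per kb) and Syn1 (169.8 CPM per kb).

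Other members of these families were lower per kilobase of merged exon. Stx1a, which encodes a plasma membrane syntaxin of neurons, was at 49.7 ± 8.19 CPM per kb. The vesicle glycoprotein gene Sv2a (113 ± 4.63 CPM per kb) was above Sv2b (54.4 ± 5.14 CPM per kb) and Sv2c (3.49 ± 0.513 CPM per kb), without overlap of their SD ranges. Syn2 stood at 94.99 ± 8.53 CPM per kb and Syn3 at 0.925 ± 0.199 CPM per kb, but per kilobase of the longest transcript Syn2 (173 CPM per kb) was level with Syn1. At the low end lay Syt15 (0.262 CPM per kb), Stx19 (0.0937 CPM per kb) and Stx11, a syntaxin known from immune cells (0.082 CPM per kb), above the untested Syt8 (0.0252 CPM per kb) and Cplx4 (0.0251 CPM per kb).

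**Figure D1:**
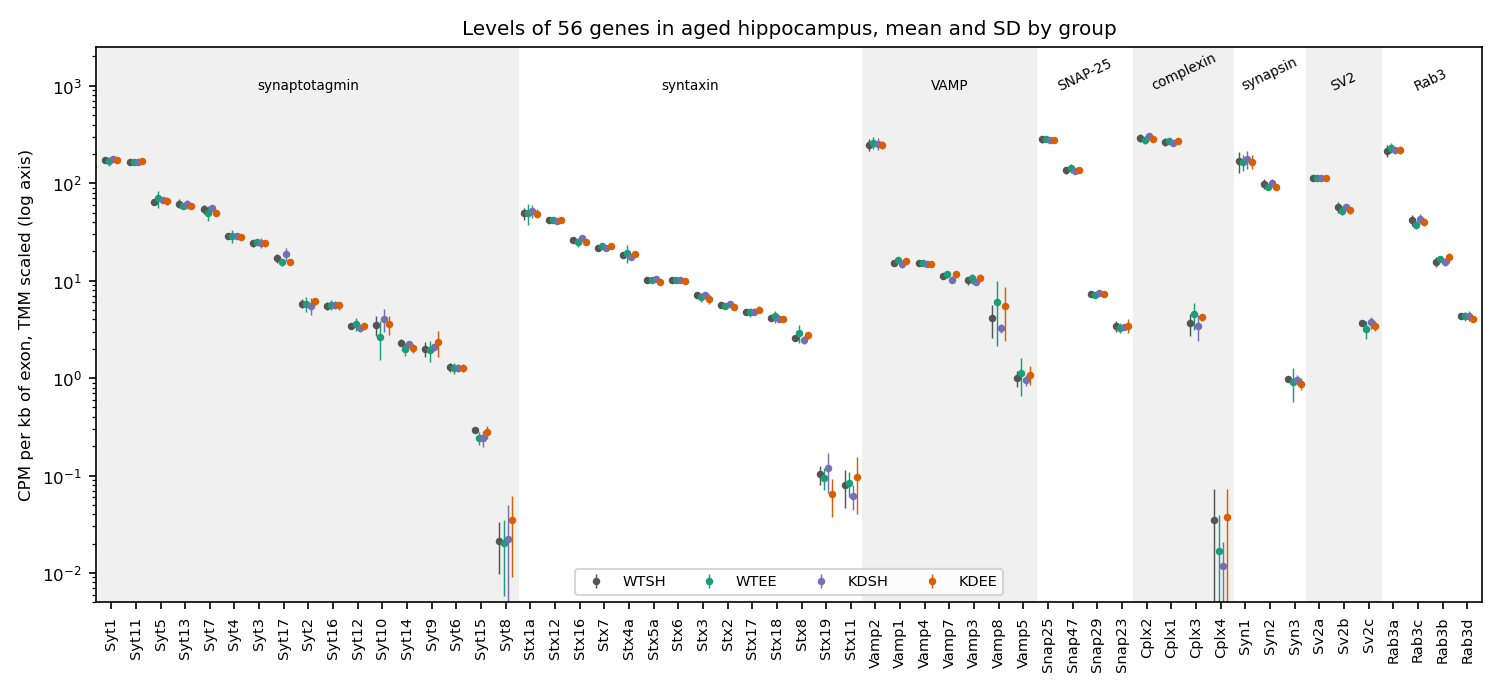
Mean level per kilobase of exon (CPM per kb, TMM scaled, log axis) of 56 of the 57 genes by family, with 1 point per group (WTSH, WTEE, KDSH, KDEE) and bars of 1 SD over the mice of that group, cut off at the axis where they reach lower. The 4 groups sit close together for most genes, and means over all 21 mice run from 288 CPM per kb for Cplx2 to 0.0251 CPM per kb for Cplx4.

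Among genes averaging at least 100 normalized counts, Syt11 was the most even member, with a coefficient of variation within groups of 2.28%, followed by Stx12, an endosomal syntaxin (4.24%), and Sv2a (4.44%). In the 21 mice Syt11 lay between 825 and 903 CPM. Vamp8, a SNARE of secretion and endosomal fusion (57.4%), Syt10 (29.05%) and Vamp5 (29.02%) varied most. The 48 members of at least 10 CPM had a median of 9.25%, beside 9.46% for all 10341 genes at that level.

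Promoter sequence was at hand from RefSeq (GRCm38.p6) for 44 of the 57 genes. Since MSK1 phosphorylates CREB, windows of 250 bases before to 50 after each gene's start were searched for the full CRE, TGACGTCA, which reads the same on both strands, and for the half-site TGACG, or CGTCA on the other strand, which lies within the full CRE. The full CRE was found in 1 of 44 genes, Syn1 (2.27%), beside 2.03% of 27025 gene symbols. The half-site was found in 13 of 44 (29.5%), beside 23.0% of all. The stretches before the annotated transcripts of Syn1 (chrX:20921005-20921168, minus strand) and Rab3a (chr8:70754453-70754678, plus strand) are shown 5′ to 3′. Both hold a match and stand out below by mouse number, not by genotype. Of the 6 members that do so at an adjusted p under 0.05, Rab3b also has the half-site. Vamp2, Syn2 and Syt17 are not among the 13. Capitals mark the full CRE of Syn1, which begins 159 bases before its RefSeq start, and the half-site of Rab3a, which begins 36 bases before.
Syn1: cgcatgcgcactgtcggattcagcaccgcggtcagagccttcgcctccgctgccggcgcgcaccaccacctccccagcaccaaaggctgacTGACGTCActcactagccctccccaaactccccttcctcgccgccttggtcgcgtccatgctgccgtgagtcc
Rab3a: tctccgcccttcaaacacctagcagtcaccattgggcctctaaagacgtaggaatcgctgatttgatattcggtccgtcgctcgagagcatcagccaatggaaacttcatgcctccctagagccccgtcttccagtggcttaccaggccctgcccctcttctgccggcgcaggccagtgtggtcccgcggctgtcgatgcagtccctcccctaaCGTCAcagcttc
Such a match describes letters and not a site in use. Between MSK1 KD and WT mice the median log2 difference was -0.02 over the 13 genes with the half-site and 0.002 over the 30 tested genes without it.

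No member was called in the 4 comparisons between groups that were tested. A call asked for a Benjamini-Hochberg adjusted p under 0.05 in edgeR's quasi-likelihood test over 20187 genes and an absolute log2 fold change over 0.38. For WTEE against WTSH, the effect of enrichment in WT mice, 0 of 55 were called (0% of all genes) and 0 had an unadjusted p under 0.05 (6.55% of all genes). For KDEE against KDSH, its effect in MSK1 KD mice, 0 were called (0% of all genes) and 5 had an unadjusted p under 0.05 (9.09%), beside 11.6% of all genes. KDSH against WTSH, the effect of the mutation in standard housing, gave 0 calls (0% of all genes) and 0 at an unadjusted p under 0.05 (1.0% of all genes). WTEE against KDEE gave 0 calls (0% of all genes) and 0 at that level (4.99% of all genes).

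DESeq2 also called 0 members in these 4 comparisons, where it called 0.00529%, 0.0371%, 0% and 0.299% of all genes. At an unadjusted p under 0.05 it had 1, 6, 0 and 0 members, beside 4.81%, 7.50%, 0.990% and 4.43% of all genes. The values of 0 members were apart between the groups in any of the 4, where 0.986%, 1.84%, 0.644% and 0.624% of all genes were apart. Each comparison shares a group with others, so these counts are not independent.

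Most members were bounded closely when averaged over genotype or housing. For enriched against standard housing averaged over genotypes, the 95% confidence interval of 48 of 55 genes (87.3%) lay inside the fold threshold on both sides, beside 58.6% of all genes. For MSK1 KD against WT averaged over housing this held for 47 of 55 (85.5%), beside 67.6% of all genes. For enrichment it held for 42 (76.4%, beside 45.1%) within WT and 42 (76.4%, beside 47.6%) within MSK1 KD mice. For the interaction it held for 39 (70.9%, beside 36.5%). Of the 55 members 48 reach 10 CPM, beside 10341 of 20187 genes, and the part of level in these shares was not tested. Snap25 was at 1874, 1845, 1822 and 2149 CPM in WTSH mice and at 1759, 1754, 1951, 2009.9 and 1934 CPM in KDSH mice, with medians of 1903 CPM in WTEE and 1899 CPM in KDEE mice. The groups overlapped, and its log2 difference was -0.0008 by housing (95% CI -0.10 to 0.10) and -0.03 by genotype (95% CI -0.14 to 0.07). Syt1 gave -0.05 by housing (95% CI -0.17 to 0.06) and 0.03 by genotype (95% CI -0.09 to 0.14).

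The intervals of Vamp2 ran from -0.15 to 0.18 by housing and from -0.18 to 0.15 by genotype, and those of Sv2a from -0.08 to 0.07 and from -0.07 to 0.08. For Syn1 they were wider, -0.30 to 0.19 by housing and -0.20 to 0.29 by genotype. In the interaction the intervals of Vamp2 (-0.20 to 0.45) and Syn1 (-0.43 to 0.54) reached beyond the threshold. Averaged intervals reached beyond it by housing for Cplx3, Stx11, Stx19, Syn3, Syt10, Vamp5 and Vamp8, and by genotype for these and Syt9.

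**Figure D2:**
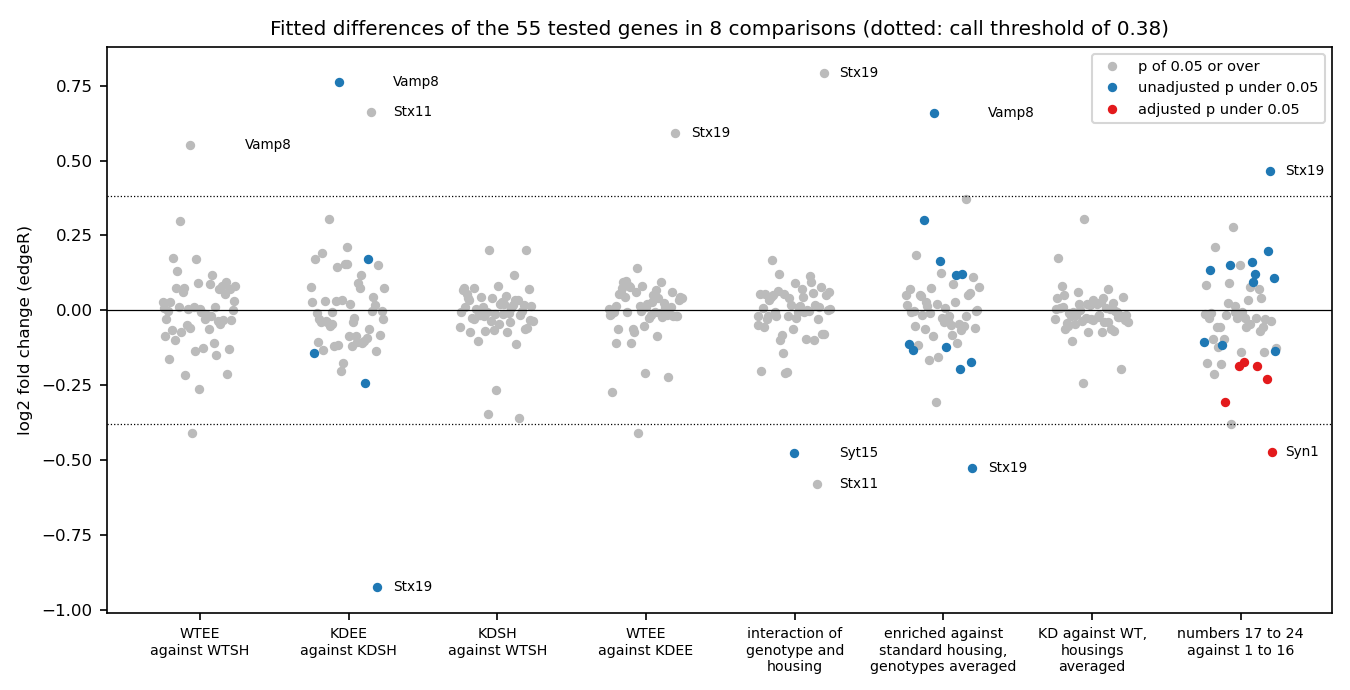
Fitted log2 fold change (edgeR) of each of the 55 tested genes in 8 comparisons, with dotted lines at the call threshold, grey for an unadjusted p of at least 0.05, blue for an unadjusted p under 0.05 and red for an adjusted p under 0.05. In the 7 comparisons of genotype and housing no gene is red, whereas 6 are red between the mice numbered 17 to 24 and those numbered 1 to 16.

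By housing averaged over genotypes, 0 members were called (0.00495% of all genes, which is 1 gene), and 11 of 55 had an unadjusted p under 0.05 (20%), beside 18.9% of all genes. Higher in enriched mice were 5 (beside 9.77% of all genes), Vamp1, Vamp7, Vamp8, Stx8 and Cplx3. Lower were 6 (beside 9.13% of all genes), Syt14, Syt17, Stx16, Stx19, Syn2 and Rab3c. Several of these, Stx8, Stx16 and Cplx3, lie outside the rule for named genes and were listed after their values were seen. The median log2 difference of the 55 was -0.006, beside 0.007 over all genes tested, and the median absolute difference was 0.06, beside 0.11. All genes were not matched to the members by level here.

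Syt17, a synaptotagmin without calcium binding, had the smallest p of these. It was at 92.5, 101, 82.0 and 81.1 CPM in WTSH mice 2, 5, 19 and 23, and ran from 69.2 through a median of 80.1 to 91.1 CPM in WTEE mice. In KDSH mice 1, 3, 8, 18 and 24 it was at 112, 108, 101, 76.7 and 86.4 CPM, and ran from 74.4 through 81.6 to 89.4 CPM in KDEE mice. The standard-housed mice numbered 1 to 8 lay highest, and the housing groups overlapped in both genotypes. The log2 difference by housing was -0.20 (SE 0.065, adjusted p = 0.20).

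Among mice numbered 1 to 16 the difference of Syt17 was -0.31 (adjusted p = 0.0361, under the fold threshold), and among those numbered 17 to 24 it was -0.06 (adjusted p = 0.97). In the first set every standard-housed mouse is numbered 1 to 8 and every enriched mouse 9 to 16, so that number and housing cannot be told apart there. With a term for mice numbered 17 to 24 against 1 to 16, fitted to both sets together, the difference was -0.21 (adjusted p = 0.16). That term does not separate mice 1 to 8 from 9 to 16, so it cannot remove this overlap of number and housing.

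Vamp1, a VAMP of spinal cord and long-axon neurons, was at 159, 147, 149.5 and 157 CPM in the WTSH mice, against 158, 164 and 176 CPM (lowest, median and highest) in WTEE mice. It was at 137, 147, 140, 166 and 157 CPM in the KDSH mice, against 152, 160 and 182 CPM in KDEE mice. Enriched mice lay toward the top in both genotypes, with overlap in each. The log2 difference was 0.12 averaged over genotypes (SE 0.041, adjusted p = 0.21) and 0.12 within each. An exact two-sided permutation test gave an unadjusted p = 0.019 in WT mice (smallest possible 0.00476) and 0.0996 in MSK1 KD mice (smallest possible 0.00216).

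Vamp8 had the largest fitted difference by housing, 0.66 on the log2 scale (SE 0.26, adjusted p = 0.23). It was at 7.69, 8.18, 14.9 and 7.38 CPM in the WTSH mice and at 7.84, 7.07, 7.63, 8.56 and 6.40 CPM in the KDSH mice. It ran from 7.71 through 8.82 to 29.3 CPM in WTEE mice and from 7.70 through 9.77 to 26.8 CPM in KDEE mice. The high mice were the 5 with high choroid plexus markers, at 13.6 to 29.3 CPM, all above the 6.40 to 10.1 CPM of the other 16. In those 16 Vamp8 was at 7.59 ± 0.665 CPM (SD, n = 8) in standard and 8.72 ± 0.84 CPM (SD, n = 8) in enriched housing. With the choroid plexus markers as a covariate its log2 difference was 0.16 (adjusted p = 0.65), and among mice numbered 17 to 24 it was -0.12 (adjusted p = 0.98).

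Vamp5, a VAMP of muscle and other non-neuronal cells, was also higher in all 5 of those libraries (3.07 to 5.53 CPM) than in the other 16 (1.96 to 2.98 CPM). Syt9 was above the other 16 (at most 9.04 CPM) in 4 of the 5, reaching 14.6 CPM in KDEE mouse 12. Snap23, the SNAP-25 relative of non-neuronal cells, was above the other 16 (at most 15.3 CPM) in 3 of the 5, reaching 19.5 CPM in the same mouse. With the covariate, 2 members (3.64%) had an unadjusted p under 0.05 by housing in place of 11 (20%), beside 8.37% of all genes in place of 18.9%.

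**Figure D3:**
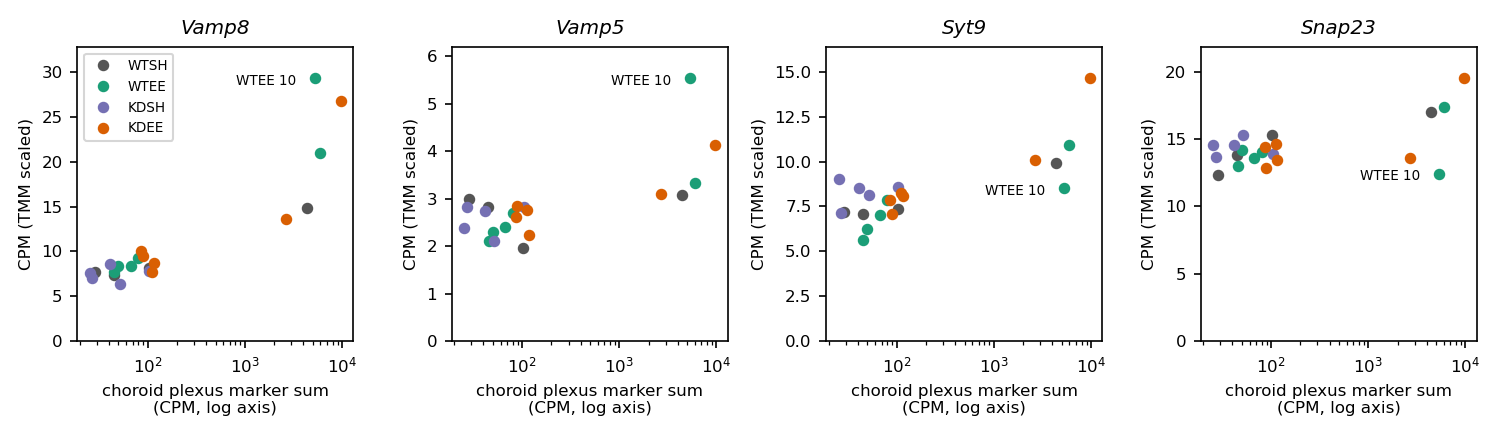
Level of Vamp8, Vamp5, Syt9 and Snap23 (CPM, TMM scaled) in each of 21 mice against the summed level of 7 choroid plexus markers (CPM, log axis), coloured by group. The 5 mice with a sum over 1000 CPM lie to the right, and for Vamp8 and Vamp5 all 5 lie above the other 16.

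Between KDEE and KDSH the 5 genes at an unadjusted p under 0.05 were Vamp7 and Vamp8, higher in KDEE (beside 5.64% of all genes), and Stx16, Stx19 and Syt17, lower (beside 5.98% of all genes). Vamp7, a SNARE of lysosomal and axonal traffic, was at 25.4, 24.3, 26.8, 29.1 and 24.6 CPM in the KDSH mice and ran from 26.7 through 28.8 to 32.9 CPM in KDEE mice. KDSH mice 1, 3 and 24 lay below every KDEE mouse and the others within their range. Its log2 difference was 0.17 (SE 0.071, adjusted p = 0.40, exact unadjusted p = 0.0476). Stx19 was at 0.335, 0.121, 0.4998, 0.277 and 0.440 CPM in the KDSH mice and at 0.082 to 0.287 CPM in KDEE mice, on 4 to 23 counts per library in all 21. These groups overlapped too, and its log2 difference was -0.92 (SE 0.33, adjusted p = 0.37, exact unadjusted p = 0.0866).

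Whether enrichment acted differently in the genotypes was tested by the interaction, the difference in WT minus that in MSK1 KD mice. It gave 0 calls (0% of all genes) and 1 of 55 members at an unadjusted p under 0.05 (1.82%), beside 3.26% of all genes and 0.971% in the same direction. That gene, Syt15, was at 1.55, 1.38, 1.62 and 1.46 CPM in WTSH mice and ran from 0.942 through 1.33 to 1.43 CPM in WTEE mice. It was at 1.29, 1.02, 0.9996, 1.35 and 1.59 CPM in KDSH mice and ran from 1.15 through 1.44 to 1.71 CPM in KDEE mice. The medians lay lower after enrichment in WT and higher in MSK1 KD mice, with overlap in both. The interaction was -0.47 (SE 0.21, adjusted p = 0.9999), and it was -0.71 among mice numbered 1 to 16 and -0.11 among those numbered 17 to 24.

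Genotype averaged over housing gave 0 calls (0% of all genes) and 0 of 55 members at an unadjusted p under 0.05, beside 1.90% of all genes. The members with the smallest p were Syt10 (log2 difference 0.31, SE 0.21), Syt9 (0.17, SE 0.13) and Rab3c (0.08, SE 0.063), each at an adjusted p of 0.9996. Without KDEE mouse 12 the difference of Syt9 was 0.09, and with the choroid plexus covariate it was 0.24 (unadjusted p = 0.000863, adjusted p = 0.9999). Without WTSH mouse 23 that of Rab3c was 0.13. Syt10, a calcium sensor of growth-factor secretion, ran from 4.55 to 8.17 CPM in WTSH, from 1.38 to 7.94 CPM in WTEE, from 5.06 to 9.91 CPM in KDSH and from 4.01 to 8.43 CPM in KDEE mice. All 4 groups overlapped, and the lowest value was WTEE mouse 10.

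Other genes of vesicle docking, priming and recycling were read from a list of 40, all of them tested. None was called by housing, genotype or their interaction in edgeR. By housing averaged over genotypes 11 of 40 (27.5%) had an unadjusted p under 0.05, beside 18.9% of all genes. Of these 10 (25%, beside 9.13% of all genes) were lower and 1 (2.5%, beside 9.77%) was higher in enriched mice. Lower were the active zone scaffolds Bsn (log2 difference -0.27) and Pclo (-0.27), the priming factors Unc13a (-0.23) and Unc13b (-0.22), and the calcium sensors Doc2a (-0.22) and Doc2b (-0.26). So were Rimbp2 (-0.22), Itsn1 (-0.18), Rims1 (-0.14) and Stxbp5 (-0.14), all with adjusted p from 0.23 to 0.26. Higher was Stxbp3 (0.22, adjusted p = 0.21). The median log2 difference of the 40 was -0.06, beside -0.006 for the 55 members and 0.007 for all genes. In the same comparison 4 of 5 oligodendrocyte, 5 of 5 blood and 6 of 7 choroid plexus markers had an unadjusted p under 0.05, all higher in enriched mice, with median log2 differences of 0.25, 1.46 and 2.59. The oligodendrocyte markers summed to 5366 to 7932 CPM in WTSH, 5952 to 7220 CPM in WTEE, 5086 to 7285 CPM in KDSH and 6072 to 7712 CPM in KDEE mice. The blood markers summed to 56.1 to 72.8 CPM, 56.2 to 393 CPM, 37.0 to 77.5 CPM and 72.6 to 242 CPM in these groups. The part of these in the housing differences of the list and of the 55 members was not tested. Of the 10 lower genes, all but Doc2a were lowest of all 21 mice in WTEE mouse 10. Bsn, Pclo and Unc13a were there at 195, 152 and 202 CPM, against medians of 555, 306 and 450.3 CPM over the 21. The counts of the list without this mouse are not given here.

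More members passed the test by the number of the mouse than by its group. In the labels, mice numbered 1 to 8 are all standard-housed, 9 to 16 are all enriched, and 17 to 24 hold 2 mice of each group. What the numbers stand for is not given in the sources used here, and the comparison was added after the values of Syn1 had been seen. With the 4 groups in the fit, 1 of 55 members was called between mice numbered 17 to 24 and those numbered 1 to 16 (1.82%), beside 1.24% of all genes. At an adjusted p under 0.05 whatever the fold there were 6 (10.9%), beside 5.27% of all genes, and all 6 were lower in mice 17 to 24. At an unadjusted p under 0.05 there were 17 (30.9%, beside 22.4% of all genes), 8 higher and 9 lower (beside 11% and 11.4% of all genes).

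Syn1 (chromosome X, 20860511 to 20921004, minus strand, GRCm38) was the member called. It was at 408 and 480.1 CPM in WTSH mice 19 and 23, at 486 and 425 CPM in WTEE mice 17 and 21, at 434 and 467 CPM in KDSH mice 18 and 24, and at 433 and 450.4 CPM in KDEE mice 20 and 22. In the 13 mice numbered 1 to 16 it ran from 465 through a median of 647 to 702 CPM. The sets were apart in 3 of the 4 groups, the exception being WTEE, where mouse 10 at 465 CPM lay below mouse 17. The log2 difference was -0.47 (SE 0.064, adjusted p = 0.000235). Exact permutation of the numbers within groups gave p = 0.000148 (smallest possible 7.41e-05). Neither p takes into account that the comparison was added after the values of Syn1 had been seen.

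Vamp2 (chromosome 11, 69088490 to 69092384, plus strand) was at 803 to 893 CPM in the 8 mice numbered 17 to 24 and at 923 to 1215 CPM in the 13 others. It was the only member whose sets were apart over all 21 mice (1.82%), beside 0.589% of all genes, with a log2 difference of -0.31 (SE 0.045, adjusted p = 0.000532). Rab3a was at 410.4 to 472 CPM against 469 to 612 CPM, apart within each of the 4 groups, with a log2 difference of -0.23 (SE 0.045, adjusted p = 0.00622). Both gave an exact permutation p of 7.41e-05, the smallest possible.

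Syn2, Rab3b and Syt17 differed by less, with log2 differences of -0.17, -0.18 and -0.19 and adjusted p of 0.0191, 0.0308 and 0.0485. Their sets were apart in 2, 3 and 3 of the 4 groups. In the libraries the study left out, which did not enter this fit, Syn1 was at 609, 629.8 and 662 CPM in samples 4, 6 and 7 and Vamp2 at 939.8, 1117 and 1051 CPM on the scale of all 24. On that scale the 21 ran from 398 to 681 CPM for Syn1 and from 783 to 1184 CPM for Vamp2.

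**Figure D4:**
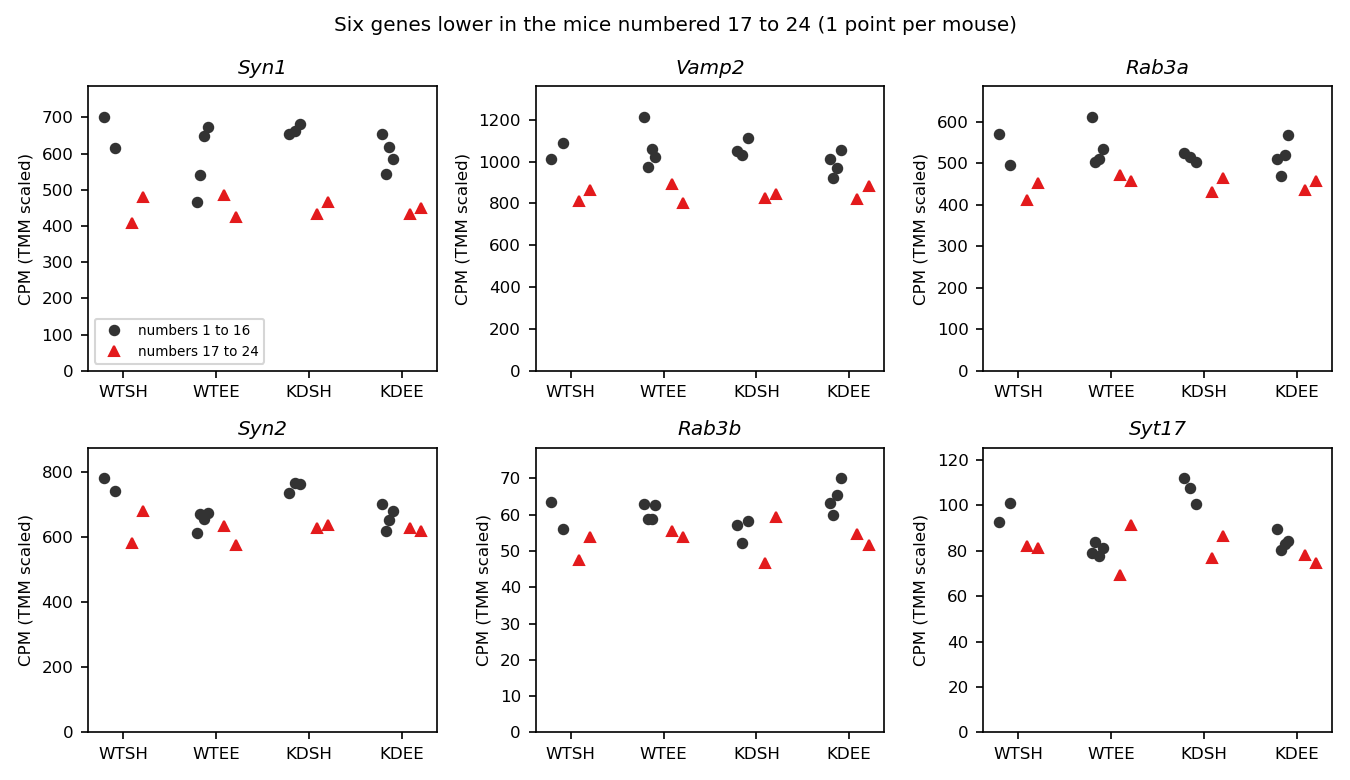
Level (CPM, TMM scaled) of Syn1, Vamp2, Rab3a, Syn2, Rab3b and Syt17 in each mouse by group, with circles for the mice numbered 1 to 16 and triangles for those numbered 17 to 24. The triangles of Vamp2 lie below its circles in all 4 groups, at 803 to 893 CPM against 923 to 1215 CPM, and those of Syn1 do so outside WTEE.

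Members with positive differences did not pass the adjusted threshold. Syt14 gave 0.20 on the log2 scale (adjusted p = 0.0522), Snap25 0.11 (adjusted p = 0.15) and Vamp1 0.095 (adjusted p = 0.13). Of the 40 docking, priming and recycling genes 7 (17.5%) had an adjusted p under 0.05, beside 5.27% of all genes, and 0 were called, beside 1.24%. Among them, lower in mice 17 to 24 were Dnm1 (-0.29), Slc32a1 (-0.22), Syngr3 (-0.20) and Slc17a7 (-0.19), which encode dynamin-1, the vesicular GABA transporter, synaptogyrin-3 and a vesicular glutamate transporter. Higher were Unc13b (0.36) and Napb (0.20).

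Transcript GC content went with this difference across genes, with a Spearman rho of -0.56 over 54 members, beside -0.269 over 19459 tested genes, and all points share the same libraries. Exon length gave a rho of 0.515 over 55 members, beside 0.076 over 19465 genes. The longest transcript of Syn1 has 57.9% GC, that of Vamp2 53.2% and that of Snap25 38.7%. The neuronal markers summed to 6064 to 6747 CPM (median 6238 CPM) in mice 17 to 24, beside a median of 6258 CPM in the others. Within that list Rbfox3 was lower (log2 difference -0.20, adjusted p = 0.0354) and Map2 gave 0.21 (adjusted p = 0.0985). The inhibitory neuron markers summed to 799 to 905 CPM (median 817 CPM) against 822 to 983 CPM (median 912 CPM), with Slc32a1, which is on both lists, lower and Sst at -0.26 (adjusted p = 0.0909). The endothelial markers summed to 84.1 to 111.5 CPM (median 104 CPM) against 108 to 142 CPM (median 118 CPM). The part of GC content, length and these markers in the difference was not tested.

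WTEE mouse 10 stood apart from the other 20. It was the highest of the 21 for 18 of the 55 tested genes and the lowest for 14, together 32 (58.2%), beside 56.1% of all tested genes. The next library, KDEE mouse 12, was at an end for 8. All members listed for this mouse outside the rule for named genes were chosen after their values were seen.

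Lowest by ratio was Syn3, at 3.15 CPM against a median of 13.6 CPM in the other 5 WTEE mice. Syt10 (1.38 against 5.001 CPM) and Syt7, a slow calcium sensor (240.2 against 398 CPM), followed. Syt1 at 1127 CPM and Cplx2 at 1120.4 CPM were also below the other 20 mice. Highest by ratio, after Vamp8 and Vamp5, were Cplx3 (20.7 against 12.1 CPM), Stx1a (195 against 116 CPM), Stx8 (29.6 against 19.2 CPM) and Syt5 (233 against 152 CPM).

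The neuronal markers of that library summed to 3940 CPM, against 5734 to 7140 CPM in the other 20. Of the 5, Camk2a, Map2 and Rbfox3 were the lowest of the 21 (2313, 700.1 and 218 CPM) and Tubb3 and Nefl the highest (388 and 321 CPM). Hippocampal subfield markers summed to 693 CPM, against 895 to 1195 CPM. Of these Prox1, Fibcd1, Grik4 and Zbtb20 (90.1 CPM against a median of 272 CPM over the 21) were the lowest of the 21. C1ql2, Wfs1 and Neurod6 lay within the range of the others. Exon length went with its deviation from the other WTEE mice, with a Spearman rho of -0.484 over 55 members and -0.332 over 19465 genes, all from 1 library. The part of these in its values was not tested. Without this mouse 0 members were called by genotype, housing or their interaction, as with it. With it at most 1 of 20187 genes was called in any of these comparisons, so a count of 0 was likely beforehand. The share of all genes called without it is not given here.

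**Figure D5:**
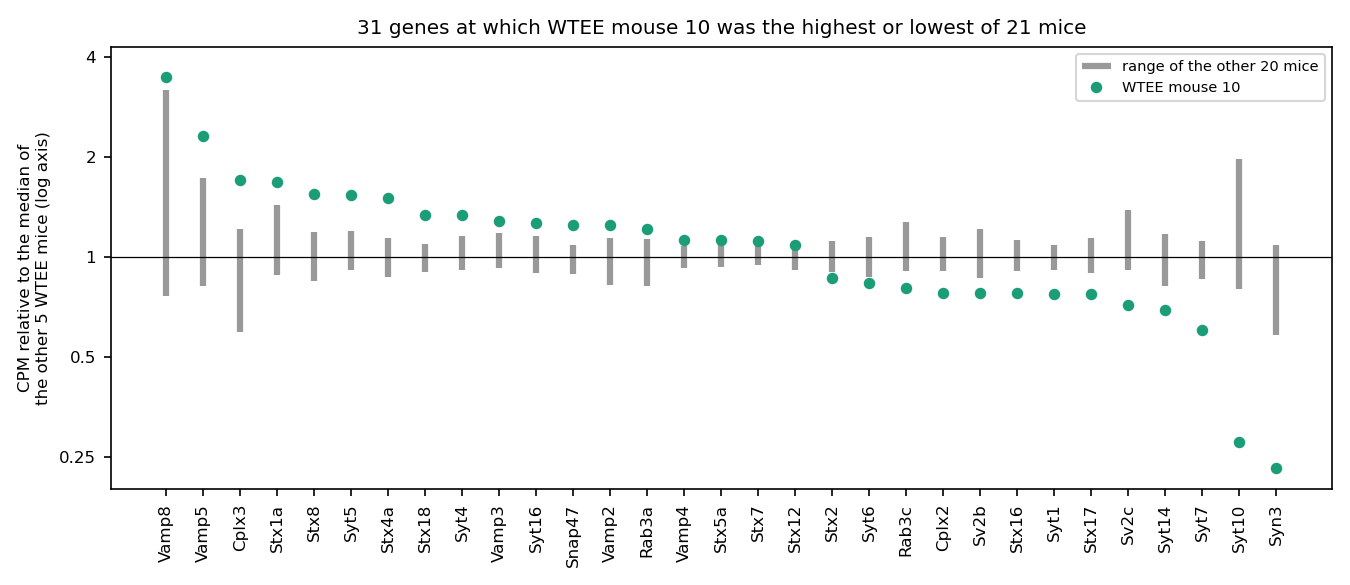
Level of 31 of the 32 genes for which WTEE mouse 10 was the highest or the lowest of 21 mice, as its CPM divided by the median of the other 5 WTEE mice (log axis), with grey bars for the range of the other 20 mice on the same scale. Its values run from 3.49 times that median for Vamp8 to 0.232 times for Syn3.

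Of the counts of samples 4, 6 and 7, 49.2, 25.8 and 50.2% lay outside genes, beside 13.1 to 21.3% in the 21. The 3 libraries were set against the range of the 21 after TMM scaling over all 24. Sample 6 (KDSH) was above that range for 1 of 55 members, Syt3 (1.82%, beside 3.64% of all genes). It was below for 1, Stx19 on 3 counts (1.82%, beside 4.59%). Sample 4 (WTSH) was above for 4 (7.27%, beside 15.3% of all genes) and below for 9 (16.4%, beside 15.6%). Sample 7 (WTSH) was above for 3 (5.45%, beside 14.6% of all genes) and below for 4 (7.27%, beside 13.7%).

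No member was outside the range on the same side in all 3, so the examples here were chosen after their values were seen. Syt14 was above it in samples 4 and 7, at 35.4 and 36.1 CPM against 17.6 to 29.7 CPM, and within it at 18.5 CPM in sample 6. Stx19 was above it in samples 4 and 7, at 0.57 and 0.854 CPM against 0.0802 to 0.484 CPM, and below it at 0.0784 CPM in sample 6. These Stx19 values rest on only 7, 15 and 3 counts, beside 4 in the kept library with the fewest. Syt5 was below it in samples 4 and 7, at 111 and 133 CPM against 136 to 227 CPM. Syt11, the most even member, was at 769 CPM in sample 4, below its range of 804 to 877 CPM, and at 812 and 817 CPM in samples 6 and 7. Vamp1 was below its range in sample 7, at 123 CPM against 133 to 178 CPM. Without TMM scaling, samples 4 and 7 were below the range for 41 and 40 of 55 members (74.5% and 72.7%), beside 51.2% and 54.1% of all genes.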

How the data were processed

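Hippocampal RNA was isolated with Trizol from individual mice, and libraries were prepared with TruSeq v2 and sequenced as read pairs. The authors checked reads with FastQC 0.11.3, trimmed adapters with Skewer, aligned them to GRCm38 with STAR 2.5 and deposited HTSeq 0.6.1p1 counts of unique, un-stranded read pairs per gene symbol, 1 file per mouse. Between 13.1 and 21.3% of the counts in the 21 kept libraries lay outside genes (HTSeq totals) and entered neither library sizes nor tests.

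After filterByExpr and TMM scaling, edgeR 4.0.16 (R 4.3.3) fitted 1 mean per group to the 21 libraries the study kept, and its quasi-likelihood F-test gave the p-values. They were adjusted over all 20187 genes by the Benjamini-Hochberg method, and the fits were tested on simulated counts. Each library is a separate mouse, so p-values measure the spread between mice. The study gave housing by cage, with more males per enriched than per standard cage, and the labels do not name cages. Mice of a group may have shared a cage, which the p-values and intervals by housing do not take into account. Single members were also compared by exact two-sided permutation of log2 CPM, adding 2 prior counts. Exon lengths and positions are those of GENCODE M21 (GRCm38). Alternatives were DESeq2 1.42.0, RLE size factors, other filters, all 24 libraries, only the groups compared, a robust fit, a choroid plexus covariate, no fold threshold, each library left out, and, chosen after seeing the data, terms for and splits by sample number.

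The named genes were the highest and lowest member of each family per length, the 13 core release genes, the 3 members with the smallest p in each comparison and any called, the 3 most and 3 least variable among those averaging 100 counts, and any outside the range in all of samples 4, 6 and 7. Values of some members and list genes are not reported here. Members and lists were chosen with earlier results of these data known. Figures were drawn with matplotlib 3.10.9 and tables made with pandas 2.3.3 and scipy 1.17.1.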

Additional observations from a re-analysis of the deposited data

Results flagged for a closer look

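In 12 of 124 groups of 4 to 6 mice tested over 31 named genes, 1 mouse lay farther from the rest than Dixon's test allows at the 95% level. Chance alone gives this in about 1 in 20 independent groups. Vamp8 and Vamp5 were named for their large spread and all genes share the same mice, so the 12 cannot be set against that rate. WTEE mouse 10 accounted for 5 of the 12. It was the lowest of its group for Cplx2 (1120 CPM) and Syn3 (3.15 CPM), and the highest for Stx1a (195 CPM), Syt5 (233 CPM) and Vamp5 (5.53 CPM). Another 5 came from mice with high choroid plexus markers. Snap23 was highest in WTEE mouse 13 (17.4 CPM) and KDEE mouse 12 (19.5 CPM), Vamp8 in WTSH mouse 19 (14.9 CPM) and KDEE mouse 12 (26.8 CPM), and Syt9 in WTSH mouse 19 (9.90 CPM). The remaining pair concerned Snap25, which was highest in WTSH mouse 23 (2150.0 CPM) and WTEE mouse 17 (2150.0 CPM).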

How the results depend on the processing

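Of 257 counts of called members under an alternative, 1 differed from the reported one, with 6 called between mice numbered 17 to 24 and 1 to 16 when no fold threshold was set. In the reported fit at most 1 of 20187 genes was called by genotype, housing or their interaction. An unchanged count of 0 members was therefore likely there. Single members were followed in the comparisons where their p was among the smallest, and most alternatives left out 1 library. A kept direction was therefore likely beforehand. Of 828 values of single members under an alternative 826 kept their direction. The exceptions, both among mice numbered 17 to 24 alone, were the interaction of Syt5 (-0.0051 in place of 0.17, which was 0.04 without WTEE mouse 10) and the housing difference of Vamp8 (-0.1183 in place of 0.66). Without TMM, samples 6, 4 and 7 were outside the range of the 21 for 8, 41 and 41 members, in place of 2, 13 and 7. Counts at an unadjusted p under 0.05 moved more, and the cause was not tested. By housing averaged over genotypes the 11 became 5 without KDEE mouse 12, 6 without WTSH mouse 23, 7 without WTSH mouse 5 or KDEE mouse 15, 3 among mice numbered 17 to 24 alone, and 15 with all 24 libraries. Between KDEE and KDSH the 5 became 2 without KDSH mouse 3, 3 without KDSH mouse 1 or KDEE mouse 9 or 12, and 9 without KDEE mouse 20 or WTEE mouse 10. They were 3 with the choroid plexus covariate, 8 with only the groups compared and 0 among mice numbered 17 to 24. The 1 of the interaction became 0 without KDSH mouse 8, KDEE mouse 9 or 12, WTEE mouse 16 or WTSH mouse 2 or 19. The 0 between WTEE and WTSH became 9 with all 24 libraries. The share of all genes at that level is not given for these settings, so these counts cannot be read as a result about the members. By number, the adjusted p in edgeR reached at most 0.00114 for Syn1, 0.00228 for Vamp2 and 0.0201 for Rab3a. It reached 0.0913 for Syn2 with no filter on low counts, 0.078 for Rab3b without KDEE mouse 20 and 0.107 for Syt17 without KDSH mouse 18. No paired analysis was possible because each sample number occurs in 1 group only.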
